A study of Mus musculus with 24 samples.

Results

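The genes described here are 3 bone morphogenetic protein (BMP) ligands, Bmp2, Bmp4 and Bmp7, and 7 genes that BMP signalling is known to switch on, Id1, Id2, Id3, Msx1, Msx2, Smad6 and Smad7. They were taken by symbol from the table of raw counts, in which they are 10 of 35591 genes. All 10 are protein coding and passed the filter on low counts in every comparison. Positions are given on the mouse genome build GRCm38. The libraries were poly(A) RNA sequencing of male mouse embryonic stem cells (mESCs) on the way to neuromesodermal progenitors (NMPs), which give rise to spinal cord and trunk mesoderm. There were 6 lines, 3 Smchd1[fl/+] lines (wt) and 3 Smchd1[del/+] lines (het). Harvests on days 0, 2, 2.5 and 3 gave 24 libraries in 8 groups of 3. The protein encoded by Smchd1 acts in chromatin to keep genes silent, and the genotypes were compared to ask what loss of 1 embryonic copy does when the oocyte's supply of the protein is normal.

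All lines came from a Castaneus mother with intact Smchd1 and a C57BL/6 father that carried a deleted and a floxed Smchd1 allele and an MMTV-Cre transgene, so the wt lines also carried an altered paternal allele, the floxed one. Each line was grown from a single blastocyst, so the 4 days of a line are not independent. Line numbers are shared by wt and het only as names. Before day 0 the cells had been brought stepwise from 2i medium, whose inhibitors include CHIR99021, to medium with serum, both with leukaemia inhibitory factor (LIF). From day 0 they were in serum-free N2B27 medium with basic fibroblast growth factor, to which the Wnt activator CHIR99021 was added on day 2. Cells for the day 0 harvest were seeded more densely than those for the later harvests. The differentiation factor GDF11 was first given with the medium change of day 3, the day of the last harvest used here.

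BMPs are secreted dimers that bind pairs of serine-threonine kinase receptors. The receptors phosphorylate Smad1, Smad5 and Smad9, which join Smad4 and act on target genes in the nucleus. The Id genes encode proteins that hold basic helix-loop-helix factors off DNA and are best known in mESCs as BMP targets that act with LIF to keep cells undifferentiated. Smad6 and Smad7 encode inhibitors of the same pathway and are part of its negative feedback.

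Library totals ranged from 7.10 to 20.8 M (mega) counts, with wt day 2.5 line 2 the smallest. Smchd1 in het was 66.3%, 59.9%, 66.0% and 54.7% of the wt mean on day 0, day 2, day 2.5 and day 3, and every het library lay below every wt library of its day. Pluripotent markers fell and neuromesodermal markers appeared over the labelled days. The summed level of 6 pluripotent markers was 2302 to 2540 counts per M counts (CPM) on day 0 and 271 to 536 CPM on day 3. That of 6 neuromesodermal markers was 2.58 to 10.3 CPM on days 0 and 2 and 475 to 1311 CPM on days 2.5 and 3. That of 4 epiblast markers moved little at first, from 976 to 1165 CPM on day 0 to 1219 to 1416 CPM on day 2. A list of 21 extraembryonic endoderm markers summed to 2094 to 5338 CPM on day 0 and 5127 to 19351 CPM later. Libraries are bulk RNA, in which fewer cells of a type and less RNA per cell cannot be told apart.

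Promoter sequence is shown for 4 of the genes because Id2, Id3 and Bmp4 were high on day 0 and low on day 2, while Msx2 was low on day 0 and high on day 3. The RefSeq table for GRCm38.p6 held the 250 bases before the start of 6 of the 10 genes, namely Bmp4, Id2, Id3, Msx1, Msx2 and Smad6. Those printed are chr12:25096093-25096342 (minus strand, Id2), chr4:136143572-136143821 (plus strand, Id3), chr14:46390670-46390919 (minus strand, Bmp4) and chr13:53472781-53473030 (minus strand, Msx2). Those of Id2, Id3 and Msx2 lie inside the span of the gene in the count table, whose start is farther upstream than the RefSeq start. The sequences read 5′ to 3′ along the gene, and capitals mark GGCGCC or GGAGCC on either strand (GGAGCC on the other strand reads GGCTCC), which are known as core letters of elements bound by BMP-activated Smads.
Id2: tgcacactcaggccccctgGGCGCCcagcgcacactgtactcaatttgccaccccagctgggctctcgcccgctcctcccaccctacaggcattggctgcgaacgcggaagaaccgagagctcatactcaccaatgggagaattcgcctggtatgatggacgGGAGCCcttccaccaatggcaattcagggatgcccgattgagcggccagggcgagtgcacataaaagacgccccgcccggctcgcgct
Id3: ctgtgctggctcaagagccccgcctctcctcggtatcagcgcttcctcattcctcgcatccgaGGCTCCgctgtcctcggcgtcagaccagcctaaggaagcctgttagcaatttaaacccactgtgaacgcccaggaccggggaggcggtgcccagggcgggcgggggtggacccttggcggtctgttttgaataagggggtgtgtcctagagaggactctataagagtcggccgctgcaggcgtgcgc
Bmp4: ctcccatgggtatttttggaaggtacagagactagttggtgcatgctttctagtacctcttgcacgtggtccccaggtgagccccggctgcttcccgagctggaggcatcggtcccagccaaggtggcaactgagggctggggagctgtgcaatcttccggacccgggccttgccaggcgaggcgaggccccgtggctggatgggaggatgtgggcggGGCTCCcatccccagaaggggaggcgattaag
Msx2: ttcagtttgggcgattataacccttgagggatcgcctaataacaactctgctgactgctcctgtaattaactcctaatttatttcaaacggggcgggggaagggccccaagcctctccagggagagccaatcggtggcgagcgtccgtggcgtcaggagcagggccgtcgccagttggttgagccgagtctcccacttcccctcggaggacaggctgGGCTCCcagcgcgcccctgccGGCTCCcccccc
GGCGCC was found in 1 of the 6 promoters, that of Id2, and in 9.59% of 32851 promoters of the same length in the table. GGAGCC was found in 5 of the 6, all but Msx1, and in 26.0% of the table. Msx1, which was also low on day 0 and high on day 3, thus held neither. The promoters of Msx1 and Smad6 are not printed. The GC content of the 6 was 61.6% to 68.0%, against a median of 52.4% over the table. These matches describe letters in this window only.

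By group mean the Id genes, Bmp4 and Smad7 were highest on day 0 in both genotypes, and Bmp7, Msx1 and Msx2 on day 3. Bmp2 was highest on day 3 in het. In wt its means on day 2 and day 3 were nearly equal (4.74 and 4.75 CPM), and its highest library was on day 2 (line 3, 8.80 CPM). Scaled by exon length (RPKM, reads per kilobase and M counts), the order on day 0 by the median of 6 libraries was Id1 (84.6), Id2 (47.1), Id3 (45.0), Bmp4 (23.2) and Smad7 (7.97), and the other 5 genes were below 1. On day 3 the order was Id1 (13.7), Id3 (5.32), Bmp7 (5.11), Id2 (4.46) and Msx1 (3.39), with the other 5 below these. Of Bmp2, Bmp4 and Bmp7, the one with the highest level thus differed by day. On day 0 Bmp4 had 18.5 to 25.0 RPKM and Bmp7 0.142 to 0.396, whereas on day 3 Bmp7 had 3.77 to 6.66 and Bmp4 1.25 to 3.31, with no overlap on either day. On day 2 and day 2.5 the ranges of Bmp4 and Bmp7 overlapped.

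**Figure D1:**
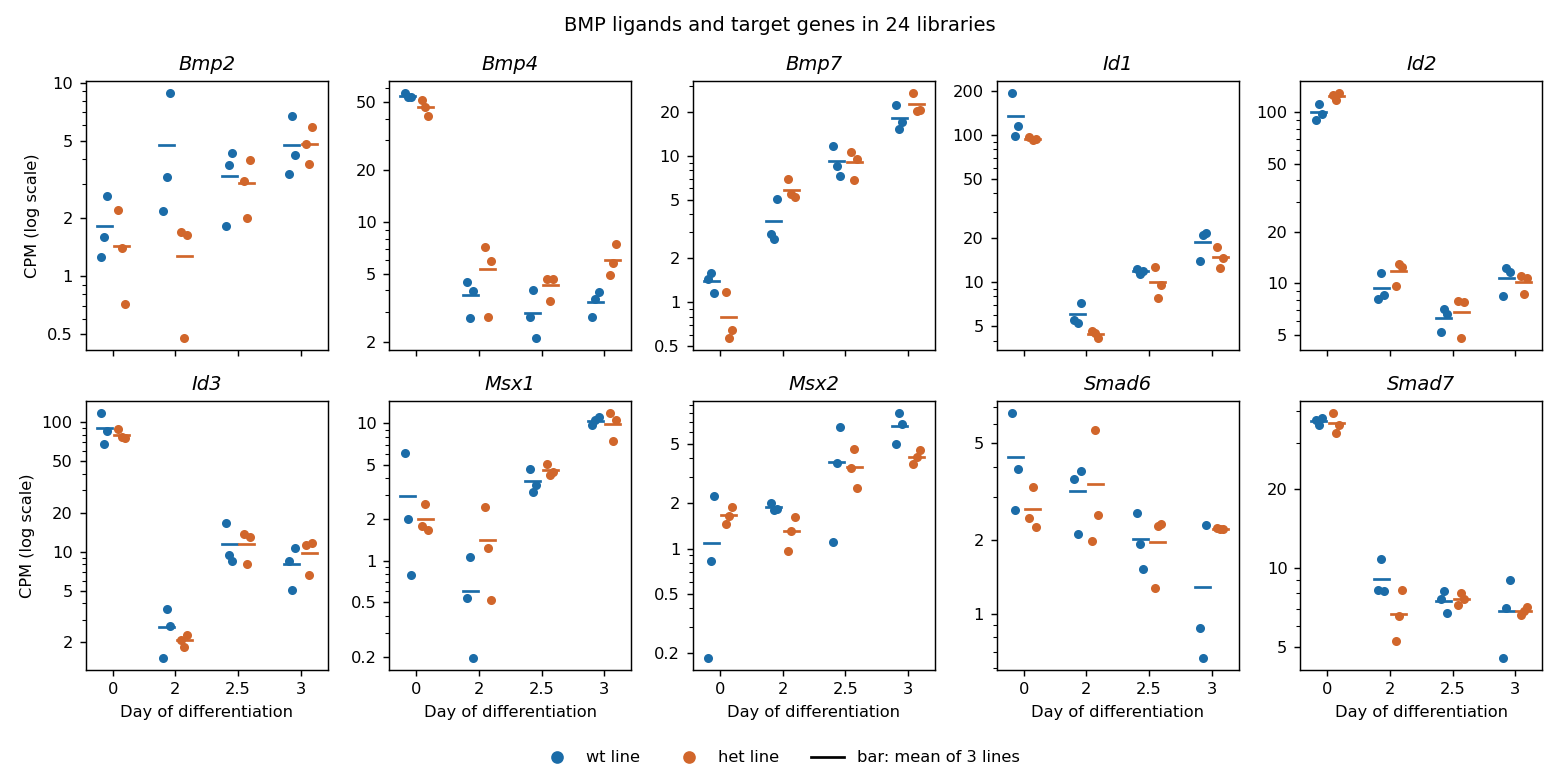
Level of each gene in CPM (log scale, a separate range in each panel) by day of differentiation. Points are lines, wt in blue and het in orange, and bars are the means of 3 lines. Id1, Id2, Id3, Bmp4 and Smad7 are highest on day 0, Bmp7 climbs from 0.572 to 1.59 CPM on day 0 to 15.2 to 26.8 CPM on day 3, and the genotypes overlap in most panels.

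Consecutive days were compared within each genotype. The steps cover the exit from LIF and serum (day 2 against day 0), Wnt activation (day 2.5 against day 2) and the time after it (day 3 against day 2.5). Seeding density also differs between the days of the first step. No culture without CHIR99021 was harvested on day 2.5, so Wnt activation and time in culture cannot be told apart. A gene is said to rise or fall where the edgeR quasi-likelihood test, fitted over all genes, gave an adjusted p under 0.05. This test had no term for the line, so it treats the days of a line as independent. From day 0 to day 2, 7 of the 10 genes passed in wt, 1 higher and 6 lower, where 44.3% of all genes passed, 22.4% higher and 21.9% lower. In het 6 passed, 1 higher and 5 lower, against 56.1% of all genes, 28.0% higher and 28.1% lower. The median log2 fold change of the 10 genes was -2.15 in wt and -1.46 in het, and that of all genes was 0.02 in wt and 0.01 in het.

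From day 2 to day 2.5, 4 genes passed in wt, all higher (29.1% of all genes passed, 14.6% higher and 14.5% lower), and 5 in het, 4 higher and 1 lower (44.7% passed, 21.8% higher and 22.9% lower). The median of the 10 genes was 0.34 in wt and 0.87 in het. From day 2.5 to day 3, 4 rose in wt (19.1% passed, 8.99% higher and 10.1% lower) and 2 in het (29.8% passed, 13.8% higher and 16.0% lower). The median of the 10 genes at this step was 0.61 in wt and 0.50 in het. The het count was 4 with the DESeq2 Wald test and with the line as a block. The wt counts depended on single lines. The count of day 2.5 against day 2 was 2 without wt line 2, where the calls over all genes fell from 4519 to 2249. That of day 3 against day 2.5 was 0 without wt line 2 and 1 without wt line 3, where the calls over all genes fell from 2923 to 29 and 988. In het, the count of day 2.5 against day 2 was 2 without het line 2, with 5308 calls over all genes in place of 6963. Over the whole course, day 3 against day 0, all 10 genes passed in wt (4 higher and 6 lower, where 53.6% of all genes passed, 27.0% higher and 26.6% lower) and 9 in het (4 higher and 5 lower, where 64.3% passed, 32.7% higher and 31.6% lower).

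**Figure D2:**
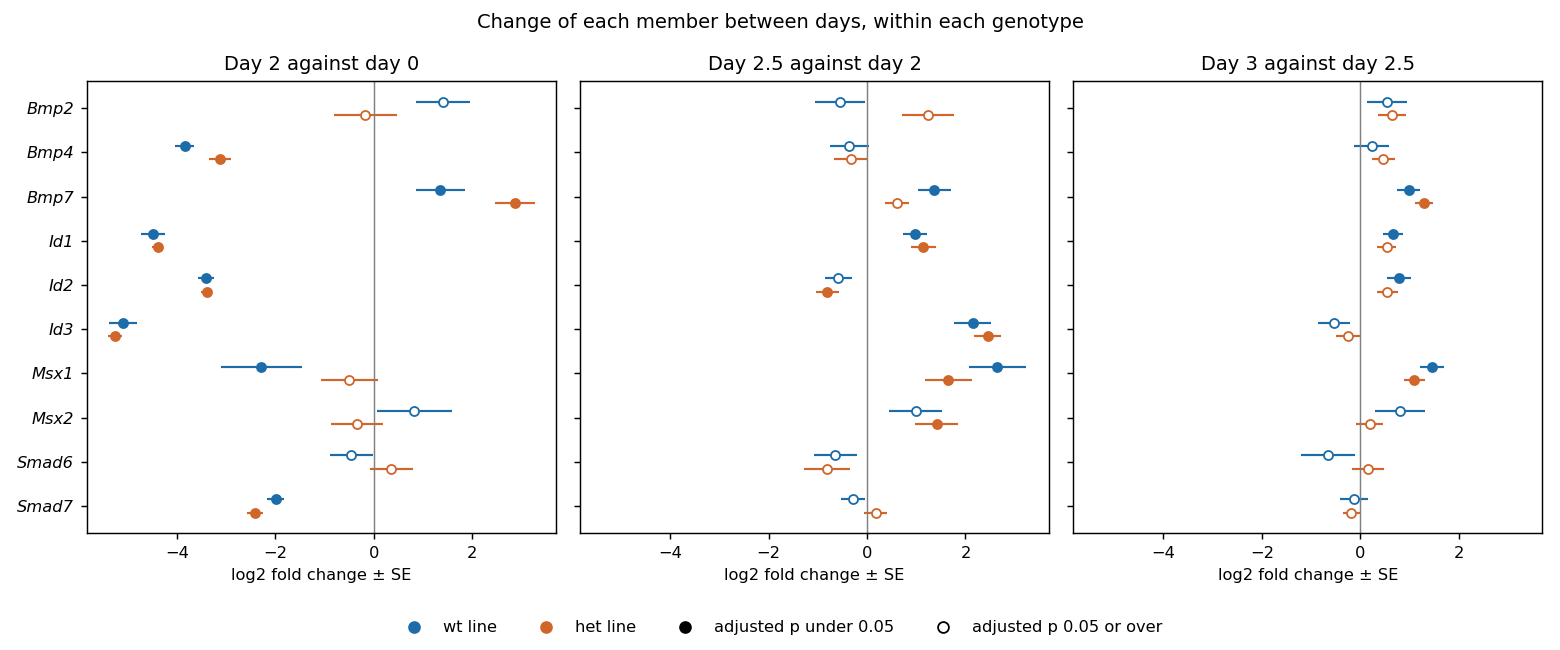
Change of each gene between consecutive days as log2 fold change ± SE, 3 lines a day, wt in blue and het in orange. Filled points have an adjusted p under 0.05. Id1, Id2, Id3, Bmp4 and Smad7 have filled points below 0 in both genotypes at the first step, down to -5.26 for Id3 in het, Id3 and Msx1 lie at 1.65 or more at the second, and Bmp7 and Msx1 are the genes above 0 with filled points in both genotypes at the third.

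Bmp4 (ENSMUSG00000021835, chr14:46383520-46390669, minus strand), the BMP ligand best known for its part in mesoderm and germ cell formation, fell after day 0. Its level on day 0 was 56.2, 53.1 and 53.5 CPM in wt lines 1, 2 and 3 and 51.3, 47.0 and 41.6 CPM in het lines 1, 2 and 3. On day 2 it was 4.49, 2.77 and 3.98 CPM in wt and 7.20, 2.80 and 5.94 CPM in het. Every day 2 library was far below every day 0 library, and the highest level after day 0 was 7.44 CPM, in het line 3 on day 3. The day 2 mean was 6.90% of the day 0 mean in wt (log2 fold change -3.84, adjusted p = 6.90e-09, SE 0.20) and 11.4% in het (log2 fold change -3.13, adjusted p = 1.76e-08, SE 0.23). From day 2 on no step of Bmp4 passed the test in either genotype. Part of its exons overlap Gm15217 on the other strand, and whether each library was stranded is not given in the sources used here.

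Bmp7 (ENSMUSG00000008999, chr2:172868012-172940321, minus strand), a ligand that often acts as a partner of Bmp2 or Bmp4, rose through the course. On day 0 it had 1.44, 1.59 and 1.15 CPM in wt and 1.17, 0.572 and 0.650 CPM in het, from 9 to 27 counts a library. On day 2 it had 2.91, 2.72 and 5.07 CPM in wt and 6.90, 5.48 and 5.22 CPM in het. By day 3 it had reached 22.2, 15.2 and 17.0 CPM in wt and 26.8, 20.4 and 20.7 CPM in het. The days 0, 2, 2.5 and 3 were separate from each other in wt, and in het only days 2 and 2.5 overlapped. The log2 fold changes of the 3 steps were 1.35 (adjusted p = 0.0368, SE 0.49), 1.36 (adjusted p = 0.00815, SE 0.33) and 0.98 (adjusted p = 0.0156, SE 0.23) in wt. In het they were 2.86 (adjusted p = 2.25e-05, SE 0.41), 0.60 (adjusted p = 0.0585, SE 0.24) and 1.30 (adjusted p = 0.000481, SE 0.18). The rise of the first wt step did not pass without wt line 2 (1.62, adjusted p = 0.0715), without wt line 3 (0.87, adjusted p = 0.395) or with the line as a block (1.30, adjusted p = 0.0722). That of the second wt step did not pass without wt line 1 (1.02, adjusted p = 0.0651) or wt line 2 (1.24, adjusted p = 0.0818), nor that of the last without wt line 2 (1.04, adjusted p = 0.119) or wt line 3 (0.88, adjusted p = 0.0977). The order of its groups by mean level was day 3, day 2.5, day 2 and day 0 in each genotype, and wt overlapped het on days 0, 2.5 and 3.

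Bmp2 (ENSMUSG00000027358, chr2:133552159-133562885, plus strand), a close relative of Bmp4, was low in all libraries, at 0.477 to 8.80 CPM. It had 1.25, 1.59 and 2.60 CPM in wt and 2.18, 1.40 and 0.715 CPM in het on day 0, and 3.35, 6.68 and 4.20 CPM in wt and 4.81, 3.77 and 5.86 CPM in het on day 3. All day 3 libraries were above all day 0 libraries. The log2 fold change of day 3 against day 0 was 1.40 in wt (adjusted p = 0.0188, SE 0.45) and 1.73 in het (adjusted p = 0.00106, SE 0.37), and the wt rise was lost without wt line 2 (0.97, adjusted p = 0.198). No single step passed the test. The nearest was day 2 against day 0 in wt (log2 fold change 1.40, adjusted p = 0.0507, SE 0.55), which passed under 7 of 11 alternatives, among them the line as a block (1.22, adjusted p = 0.0461). Day 2.5 against day 2 in het (1.23, adjusted p = 0.0709, SE 0.53) passed with the DESeq2 Wald test (1.25, adjusted p = 0.0479) and with no filter beyond 1 count (1.24, adjusted p = 0.0422). On day 2 wt line 3 stood at 8.80 CPM against 2.17 and 3.25 CPM in lines 1 and 2, and without it the value was 0.91 (adjusted p = 0.399).

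Id1, Id2 and Id3 showed the largest falls of the 10 genes from day 0 to day 2, apart from Bmp4 in wt, which fell more than Id2. Id1 (ENSMUSG00000042745, chr2:152736251-152737410, plus strand) had 192, 98.9 and 115 CPM in wt and 97.3, 92.2 and 93.2 CPM in het on day 0. On day 2 it had 5.52, 5.27 and 7.26 CPM in wt and 4.62, 4.53 and 4.18 CPM in het. The day 2 mean was thus a small part of the day 0 mean, 4.45% in wt (log2 fold change -4.48, adjusted p = 1.13e-08, SE 0.25) and 4.71% in het (log2 fold change -4.39, adjusted p = 6.21e-13, SE 0.12). Id1 then rose at day 2.5, by a log2 fold change of 0.97 in wt (adjusted p = 0.00976, SE 0.25) and 1.15 in het (adjusted p = 0.00172, SE 0.25), in 3 of 3 lines of each. The wt call was lost without wt line 2 (0.91, adjusted p = 0.0862). At day 3 it had 14.0 to 21.4 CPM in wt and 17.2, 12.4 and 14.6 CPM in het, a further rise in wt (0.67, adjusted p = 0.0435, SE 0.21) that did not pass without wt line 2 (0.55, adjusted p = 0.297), without wt line 3 (0.58, adjusted p = 0.235) or in limma with the line as a random effect (0.60, adjusted p = 0.137). In het this last step was 0.54 (adjusted p = 0.0598, SE 0.20), which passed under 5 of 11 alternatives.

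Id3 (ENSMUSG00000007872, chr4:136143497-136145755, plus strand) moved with Id1 at the first and second steps, by more. Its levels on day 0 were 117, 67.5 and 84.5 CPM in wt and 87.9, 76.6 and 75.5 CPM in het, and on day 2 they were 1.53, 3.62 and 2.68 CPM in wt and 2.10, 1.85 and 2.28 CPM in het. On day 2.5 they were 16.7, 9.39 and 8.54 CPM in wt and 13.7, 8.03 and 12.9 CPM in het. All day 2 libraries were below all others of the course. The fall had a log2 fold change of -5.10 in wt (adjusted p = 1.11e-08, SE 0.28) and -5.26 in het (adjusted p = 9.43e-13, SE 0.15). The rise at day 2.5 was 2.15 in wt (adjusted p = 0.00105, SE 0.37) and 2.45 in het (adjusted p = 1.02e-05, SE 0.28), and it kept an adjusted p under 0.05 in every alternative run. From day 2.5 to day 3 Id3 did not pass the test, with a log2 fold change of -0.53 in wt (adjusted p = 0.277, SE 0.32) and -0.26 in het (adjusted p = 0.466, SE 0.24).

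Id2 (ENSMUSG00000020644, chr12:25093799-25097140, minus strand) fell with the other Id genes at the first step and did not rise with them at the second. On day 0 it had 89.9, 112 and 97.2 CPM in wt and 127, 118 and 129 CPM in het, and on day 2 it had 8.09, 11.4 and 8.50 CPM in wt and 9.66, 13.1 and 12.5 CPM in het. On day 2.5 it had 5.17, 7.04 and 6.65 CPM in wt and 7.86, 4.80 and 7.72 CPM in het. In each genotype the day 2.5 libraries lay below those of day 2. The first step had a log2 fold change of -3.41 in wt (adjusted p = 4.20e-09, SE 0.17) and -3.40 in het (adjusted p = 5.22e-12, SE 0.11). At day 2.5 Id2 fell in het (-0.81, adjusted p = 0.0113, SE 0.23), a call lost without het line 2 (-0.53, adjusted p = 0.132). In wt the change was -0.58 (adjusted p = 0.123, SE 0.27), which passed in a fit of all 24 libraries (-0.59, adjusted p = 0.0190). At day 3 it rose in wt (0.79, adjusted p = 0.0478, SE 0.25), but did not pass without wt line 2 (0.75, adjusted p = 0.228) or wt line 3 (0.78, adjusted p = 0.190). The het value was 0.55 (adjusted p = 0.0712, SE 0.21), higher in 3 of 3 lines, and passed under 4 of 11 alternatives, among them the line as a block (0.57, adjusted p = 0.0293).

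Msx1 (ENSMUSG00000048450, chr5:37820485-37824583, minus strand), a homeobox gene of limb bud, neural crest and dorsal neural tube, reached its highest level on day 3. It had 6.07, 2.00 and 0.794 CPM in wt and 1.79, 2.61 and 1.69 CPM in het on day 0, and wt line 1 stood above the other 5 lines. On day 2 it had 0.543, 1.06 and 0.199 CPM in wt (4 to 20 counts) and 2.46, 1.25 and 0.522 CPM in het. On day 3 it had 9.64, 10.5 and 11.1 CPM in wt and 11.9, 7.44 and 10.5 CPM in het, above every library of the earlier days. It rose at day 2.5 (log2 fold change 2.65, adjusted p = 0.00463, SE 0.58 in wt and 1.65, adjusted p = 0.0110, SE 0.47 in het) and again at day 3 (1.45, adjusted p = 0.00371, SE 0.24 in wt and 1.10, adjusted p = 0.00311, SE 0.22 in het). The het rise at day 3 did not pass in a fit of all 24 libraries (1.13, adjusted p = 0.0862). Without wt line 2 the wt rise at day 3 was 1.34 (adjusted p = 0.0882), and without het line 2 the het rise at day 2.5 was 1.62 (adjusted p = 0.0696). From day 0 to day 3 the wt rise of Msx1 did not pass without wt line 2 (1.56, adjusted p = 0.0883) or wt line 3 (1.31, adjusted p = 0.0659). Its fall in wt at the first step (-2.29, adjusted p = 0.0350, SE 0.82) was -1.15 without wt line 1 (adjusted p = 0.336) and did not pass without wt line 3 (-2.35, adjusted p = 0.0588), and its day 0 and day 2 libraries overlapped.

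Msx2 (ENSMUSG00000021469, chr13:53466884-53473074, minus strand), a relative of Msx1 with a part in skull and ectodermal organ formation, rose over the whole course in both genotypes. On day 0 it had 0.188, 0.825 and 2.24 CPM in wt (3 to 31 counts) and 1.45, 1.65 and 1.88 CPM in het. On day 3 it had 4.96 CPM in line 1, 6.76 CPM in line 3 and the most in line 2 in wt, and 3.68, 4.05 and 4.53 CPM in het, and the groups of the first and last day did not overlap in either genotype. The log2 fold change of day 3 against day 0 was 2.63 in wt (adjusted p = 0.00272, SE 0.61) and 1.30 in het (adjusted p = 0.00136, SE 0.29). Of the single steps, 1 passed, day 2.5 against day 2 in het (1.42, adjusted p = 0.0169, SE 0.44), and it did not pass without het line 1 (1.28, adjusted p = 0.107) or het line 2 (1.18, adjusted p = 0.139). In wt the same step passed without wt line 1 (1.51, adjusted p = 0.0283). Day 3 against day 2.5 in wt (0.81, adjusted p = 0.286, SE 0.50) passed with the line as a block (1.02, adjusted p = 0.0382) and in limma with the line as a random effect (1.17, adjusted p = 0.0321).

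Smad7 (ENSMUSG00000025880, chr18:75367529-75395935, plus strand), which blocks receptors of both BMP and TGF-beta ligands, fell at the first step and then stayed low. It had 36.7, 35.3 and 37.6 CPM in wt and 39.2, 32.9 and 35.3 CPM in het on day 0, and 8.24, 10.9 and 8.20 CPM in wt and 5.28, 6.56 and 8.22 CPM in het on day 2. Later libraries held 4.55 to 9.02 CPM. The day 2 level was 24.9% of day 0 in wt (adjusted p = 9.50e-07) and 18.7% in het (log2 fold change -2.41, adjusted p = 1.07e-08, SE 0.17), and no later step passed. Smad6 (ENSMUSG00000036867, chr9:63953076-64022059, minus strand), the inhibitor more selective for BMP signalling, had 0.662 to 6.63 CPM over all libraries and passed at no single step. Its day 0 levels were 6.63, 2.65 and 3.90 CPM in wt and 2.46, 3.31 and 2.27 CPM in het, and its day 3 levels were 0.872, 0.662 and 2.32 CPM in wt and 2.25, 2.21 and 2.22 CPM in het. It fell from day 0 to day 3 in wt (-1.78, adjusted p = 0.0174, SE 0.56), not without wt line 1 (-1.11, adjusted p = 0.156), and the het value was -0.26 (adjusted p = 0.471, SE 0.30).

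Other cell type markers moved at the same steps. At day 2 against day 0, 6 of 6 pluripotent markers fell in each genotype, and 12 of 18 extraembryonic endoderm markers tested rose in wt and 13 of 18 in het. Of 4 epiblast markers, 2 rose in wt and 3 in het. At day 2.5 against day 2, 6 of 6 neuromesodermal markers rose in each genotype, with a median log2 fold change of 7.91 in wt and 7.64 in het, and 4 of 4 epiblast markers fell. At this step 11 of 18 endoderm markers rose and 1 fell in het (median 0.47), and 1 rose and 1 fell in wt (median 0.00). At day 3 against day 2.5, 3 of 6 neuromesodermal markers fell and 1 rose in wt, and 2 fell and 0 rose in het. A list of 7 non-neural ectoderm markers summed to 197 to 429 CPM and a list of 7 lateral and extraembryonic mesoderm markers to 13.2 to 24.3 CPM over all libraries. Sp5, a neuromesodermal marker, was at 0 counts in all libraries of day 2, and Bmp5, of the mesoderm list, likewise. The part of cell composition in the changes of the 10 genes was not tested.

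The genes whose pattern was nearest to Bmp4, Id1, Id3 and Msx2 were found by the root mean square difference of centred log2 CPM over the 24 libraries among 12449 genes, each averaging 50 counts or more. Libraries share lines and days, so these distances are descriptions. The 10 genes were left out of the ranking, and among them Id1 and Id3 lay 0.60 apart and Bmp4 and Id2 0.49. Of the other genes, the nearest to Id1 were Klf4 (0.50), Hmces (0.71) and Zfp296 (0.72), and Klf4 (0.76) and Zfp296 (0.82) also led for Id3, followed by Zbtb45 (0.86). Klf4, a transcription factor of naive pluripotent cells, had 74.0 ± 7.62 CPM in wt on day 0, 4.40 ± 0.756 on day 2 and 7.90 ± 2.00 on day 3 (SD, n = 3). Nearest to Bmp4 were Ifitm3 (0.43), an interferon-induced membrane protein gene, Ckb (0.44), which encodes a creatine kinase, and Mapt (0.47), which encodes the microtubule protein tau. Nearest to Msx2 were Gask1b (0.50), Naaa (0.52) and Morc4 (0.54).

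Of 64 other genes of the pathway, 44 to 49 were tested in each comparison. From day 0 to day 2, 15 of 45 rose and 6 fell in wt (44.3% of all genes passed, 22.4% higher and 21.9% lower). In het 18 of 45 rose and 9 fell (56.1%, 28.0% higher and 28.1% lower). From day 2 to day 2.5, 7 of 45 rose and 11 fell in wt (29.1%, 14.6% higher and 14.5% lower). In het 8 of 46 rose and 10 fell (44.7%, 21.8% higher and 22.9% lower). From day 2.5 to day 3, 7 of 45 rose and 3 fell in wt (19.1%, 8.99% higher and 10.1% lower). In het 10 of 48 rose and 4 fell (29.8%, 13.8% higher and 16.0% lower). No test compared these lists with other genes. At the first step 5 of 12 receptors were higher and 1 lower in wt and 7 higher and 1 lower in het, 5 of 11 extracellular inhibitors were higher and 1 lower in wt and 4 higher and 2 lower in het, and of 9 other targets 0 rose and 3 fell in wt and 0 rose and 5 fell in het. All 3 signal-transducing Smads tested, Smad1, Smad4 and Smad5, were higher on day 3 than on day 0 in both genotypes. Of all genes, 27.0% were higher in wt and 32.7% in het in this comparison.

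By name, those called in both genotypes with the smallest adjusted p were chosen. At the first step Tgfbr3, a co-receptor, rose from 4.40 ± 0.942 to 34.4 ± 10.1 CPM in wt and from 3.69 ± 0.637 to 20.3 ± 3.95 CPM in het (SD, n = 3). Crim1, which tethers BMPs at the cell surface, rose by a log2 fold change of 2.28 in wt and 1.91 in het, and the type I receptor gene Acvr1 by 1.94 and 1.10. Prdm1, a regulator of germ cell fate, fell by 2.77 in wt and 3.01 in het on the log2 scale, Tbx3, a T-box factor, by 1.84 and 2.73, and the co-receptor gene Eng by 1.14 and 0.93. At the second step Fst, which encodes the secreted inhibitor follistatin, rose from 34.4 ± 17.4 to 301 ± 10.5 CPM in wt and from 13.0 ± 5.05 to 323 ± 22.0 CPM in het (SD, n = 3), the largest rise of the named genes at this step. Tbx3 and Tsku, a secreted inhibitor, rose as well, by 1.55 and 0.89 in wt and 2.28 and 0.93 in het, and Skil, Ppm1a and Crim1 fell.

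At the third step Fst fell by 1.06 in wt and 0.92 in het on the log2 scale, and Bmper, which encodes an extracellular BMP-binding protein, fell from 12.6 ± 5.44 to 0.959 ± 0.914 CPM in wt and from 11.4 ± 1.08 to 1.13 ± 0.569 CPM in het (SD, n = 3). Fstl1, the co-receptor gene Rgma and the receptor gene Acvr2a rose. Rgma had the largest of these rises, with a log2 fold change of 1.56 in wt (adjusted p = 0.00418, SE 0.27) and 1.71 in het (adjusted p = 0.00273, SE 0.33).

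Comparison of het with wt, day by day, asked whether loss of the paternal copy altered these genes. By edgeR 0 of the 10 passed on any day, where 0.0%, 0.551%, 0.0% and 0.00638% of all genes passed on day 0, day 2, day 2.5 and day 3. At an unadjusted p under 0.05 the counts were 3, 1, 0 and 2 of the 10, beside 1649 of 15108, 1576 of 15414, 822 of 15588 and 1432 of 15686 genes in all, and the DESeq2 Wald test also called 0 on each day. Smchd1 itself, lower in het without overlap on every day, passed on day 2 (adjusted p = 0.00824) and day 3 (adjusted p = 0.0307) and not on day 0 (adjusted p = 0.100) or day 2.5 (adjusted p = 0.907), so differences of that size can be missed here. The groups did not overlap for 3, 4, 0 and 2 of the 10 genes, beside 16.7%, 16.0%, 11.3% and 13.9% of all genes. The median log2 fold change of the 10 genes was -0.29, -0.12, -0.01 and 0.00 in turn, and that of all genes was between -0.01 and 0.00. Of the 64 other pathway genes, 0 passed on any day.

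**Figure D3:**
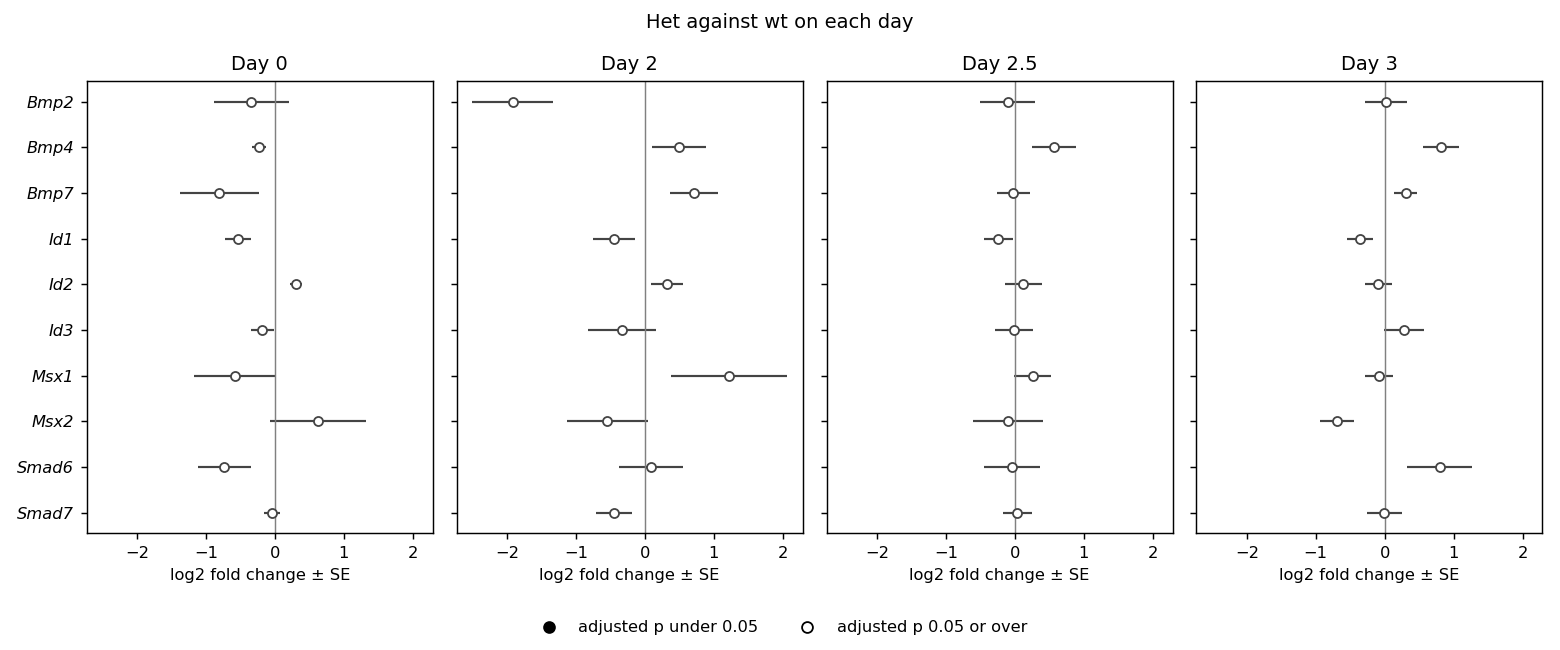
Het against wt as log2 fold change ± SE for each gene on each day, 3 lines per genotype. All points are open (adjusted p 0.05 or over). The point farthest from 0 is Bmp2 on day 2, at -1.92.

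On day 0, Id1 and Bmp4 were lower and Id2 higher in het without overlap. Id1 had a log2 fold change of -0.54 (adjusted p = 0.383, SE 0.19), which was -0.18 without wt line 1 (adjusted p = 0.527). It was lower in het without overlap on day 2 as well. On day 0 wt line 1 held the highest level of 5 of the 10 genes, Bmp4, Id1, Id3, Msx1 and Smad6, an observation made after the values were seen. Bmp4 had a log2 fold change of -0.23 (adjusted p = 0.453, SE 0.11) and Id2 of 0.31 (adjusted p = 0.334, SE 0.09). On this day the summed markers of extraembryonic endoderm (3406 to 5338 CPM in wt, 2094 to 2852 in het), non-neural ectoderm (274 to 298 and 216 to 254 CPM) and lateral and extraembryonic mesoderm (22.5 to 24.3 and 17.1 to 20.4 CPM) were also lower in het without overlap, and their part in these values was not tested. With no filter on low counts beyond 1 count, Id1 alone of the 10 passed on this day (adjusted p = 5.48e-06), a setting that called 369 of 22267 genes in all. On day 3 Bmp4 was 2.80, 3.55 and 3.90 CPM in wt and 4.91, 5.75 and 7.44 CPM in het, the reverse order of day 0, with a log2 fold change of 0.82 (adjusted p = 0.404, SE 0.26). Msx2 was lower in het without overlap on that day (-0.69, adjusted p = 0.456, SE 0.25), as on day 2.

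On day 2, Bmp2, Id1 and Msx2 were lower and Bmp7 higher in het without overlap. Bmp2 had 2.17, 3.25 and 8.80 CPM in wt and 1.68, 0.477 and 1.63 CPM in het, from 8 to 177 counts a library. Every het library was below every wt library, and wt line 3 stood apart from the rest. The het mean was 26.6% of the wt mean (log2 fold change -1.92, adjusted p = 0.210, SE 0.59). Without wt line 3 the value was -1.10 (adjusted p = 0.760), and with no filter beyond 1 count it passed (adjusted p = 0.00728), where 384 of 21707 genes passed in all. On days 0, 2.5 and 3 the genotypes overlapped for Bmp2.

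Markers of other cells were also lower in het without overlap on this day. Of 18 markers of extraembryonic endoderm tested, 18 had a negative log2 fold change in het against wt on day 2 and 13 passed the test, with a median of -1.04. On days 0, 2.5 and 3 the medians were -0.80, -0.47 and -0.70, and 0 passed by edgeR. The summed level of the 21 markers was 9766, 13795 and 19351 CPM in wt and 6197, 8423 and 7972 CPM in het on day 2, and the wt line with the highest sum was the line with the highest Bmp2. Afp, a marker of visceral endoderm, was at 0 counts in all het libraries of days 2 and 3 and in all wt libraries of day 0, and Ttr, another, was at 0 in all libraries of day 0. Within het the library with the lowest Bmp2, line 2, had the highest sum. The summed markers of lateral and extraembryonic mesoderm were 20.6 to 23.6 CPM in wt and 13.2 to 15.2 CPM in het, and those of non-neural ectoderm 248 to 295 and 197 to 242 CPM. The part of these cells in the Bmp2 values was not tested. Bmp7 went the other way, with 2.91, 2.72 and 5.07 CPM in wt and 6.90, 5.48 and 5.22 CPM in het (log2 fold change 0.71, adjusted p = 0.515, SE 0.35).

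**Figure D4:**
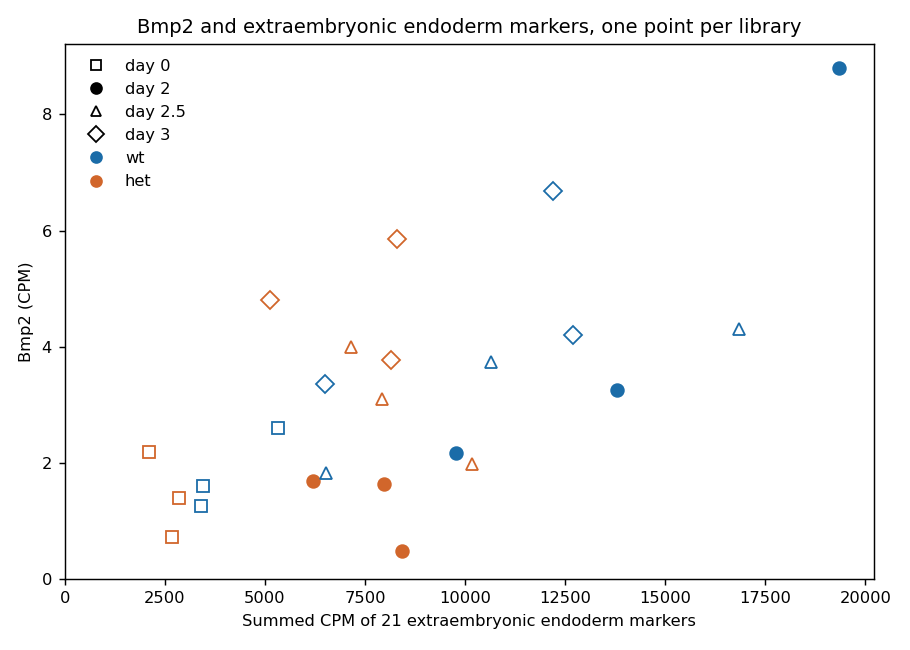
Bmp2 in CPM against the summed CPM of 21 extraembryonic endoderm markers, a point per library, wt in blue and het in orange, with day 2 filled. On day 2 the wt points run from 2.17 to 8.80 CPM at sums of 9766 to 19351, and the het points lie at 0.477 to 1.68 CPM at sums of 6197 to 8423.

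The interaction of genotype with each step asked whether the change over time itself differed between wt and het. It passed for 0 of the 10 genes at each of the 3 steps by edgeR, where 0.0% of all genes passed, and the DESeq2 Wald test and limma also called 0 of the 10. At an unadjusted p under 0.05 there were 2 genes at day 2 against day 0, 1 at day 2.5 against day 2 and 0 at day 3 against day 2.5, beside 1034 of 16387, 850 of 16569 and 635 of 16486 genes in all. Those at the first step were Bmp7, whose rise was larger in het (difference of log2 fold changes 1.52, adjusted p = 0.772, SE 0.60), and Bmp4, whose fall was smaller in het (0.73, adjusted p = 0.779, SE 0.32). That at the second step was Bmp2 (1.79, adjusted p = 0.952, SE 0.76). For the Id genes the differences were between -0.22 and 0.31 over the 3 steps, with SE from 0.19 to 0.47, and a difference of the size of these SE was not detectable with 3 lines.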

How the data were processed

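The deposited table holds raw counts per gene. Per the study's methods, reads were single-end, and the authors used TrimGalore 0.4.4 for trimming, aligned them with hisat2 2.0.5 to GRCm38.p6 and quantified genes in SeqMonk. The kit was stranded or not, without a statement for each library, and how overlapping genes were counted is not given in the sources used here. A pair of deposited log2 tables, of Hox genes and of differentiation factors, and 8 columns of group means, were not used.

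The 10 genes, the pathway list and the marker lists were chosen with earlier results of these data known. Tests on the counts were run with edgeR 4.0.16 under R 4.3.3 (TMM factors, filterByExpr by group, quasi-likelihood test, Benjamini-Hochberg adjusted over all genes tested, called at 0.05) on the libraries compared, and for the interactions on the 4 groups involved. CPM were scaled with TMM factors of the 24 libraries, and RPKM divide them by exon length. Line numbers pair the days of a line, a pairing that the main tests did not use. The correlation of a line's residuals between the days compared ranged from -0.10 to 0.48 over 12457 genes. Alternatives used DESeq2 1.42.0 and limma 3.58.1. Coordinates are those of the count table (GRCm38), and exon lengths are from GENCODE vM21. Named pathway genes were, per step and direction, at most 3 called in both genotypes with the smallest adjusted p, and up to 3 nearest patterns were named for 4 genes. Other genes named were chosen after their values were seen. The procedure was tested on simulated counts with planted 4-fold changes. It called 175 of 198 for het against wt on day 2 and 185 of 197 for wt day 2.5 against day 2. For the interaction at that step it called 143 of 198. Other genes called were 10, 7 and 6 in turn. Smaller changes were not simulated. Figures were drawn with matplotlib 3.10.9.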

Additional observations from a re-analysis of the deposited data

How the results depend on the processing

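Of 95 fold changes, 1067 values under alternatives were computed. In direction and side of the threshold 1011 were as reported, 25 no longer passed, 25 newly passed and 6 reversed, and all 6 were of changes that did not pass. With each line left out in turn, these ranged from -0.71 to 0.19 for Bmp2 and -0.065 to 0.56 for Smad6 (het day 2 against day 0), from -0.063 to 0.44 for Msx2 and -0.079 to 0.31 for Smad6 (het day 3 against day 2.5), and from -0.069 to 0.44 for Bmp4 and -0.44 to 0.13 for Smad7 (wt day 3 against day 2.5). With no filter beyond 1 count, 1 of the 10 genes passed for het against wt on day 0 and on day 2, against 0. The count for het day 3 against day 2.5 was 4 in place of 2 with no filter, with the line number as a replicate block, and with the DESeq2 Wald test. Leaving out each line in turn gave counts of 2 to 4 for wt day 2.5 against day 2, 0 to 4 for wt day 3 against day 2.5 and 2 to 5 for het day 2.5 against day 2. The cause was not tested. Changes of het against wt that are not singled out are not among the 95. None of these passed, and several changed sign, with Smad7 on day 3 keeping its sign in 6 of 14 alternatives and Smad6 on day 2 in 10 of 14. For comparisons of days, the replicate block pairs the days of a line. It changed no other count of the 10 genes by over 1.5 times. Over all genes it called 4687 in place of 2923 for wt day 3 against day 2.5. For het against wt the block joins lines that share only a number, and it is among the 14 alternatives. Of 80 group levels, 5 moved by over 1 SD with library totals alone. Low counts of Bmp2, Bmp7, Msx1, Msx2 and Smad6 limit what 3 lines can show.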
